A study of Homo sapiens with 2 samples.

Results

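The genes described here are 10 transcriptional read-outs of ERK signalling, out of 58698 genes in the deposited table. They were taken by symbol, and all 10 were found: the phosphatase genes DUSP6, DUSP4 and DUSP5, the pathway inhibitor genes SPRY2, SPRY4, SPRED1 and SPRED2, the ETS transcription factor genes ETV4 and ETV5, and PHLDA1. The RNA came from MIA PaCa-2, an established human pancreatic cancer cell line. The control culture (sgGFP, genotype WT in the labels) carried a guide against GFP, a jellyfish gene that human cells lack, and the other culture (sgTPST2, genotype TPST2 KD) a guide against TPST2, which encodes a tyrosylprotein sulfotransferase of the Golgi. Each condition was 1 library. The labels do not say whether a culture was a clone or a pool, or how the guide acts on its target. With 1 library per condition there was no replicate spread, and no test was made.

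ERK is the last kinase of the cascade that runs from receptor tyrosine kinases through RAS, RAF and MEK. Active ERK switches on genes that carry the signal further, such as the ETS factors ETV4 and ETV5, and genes that switch it off again: DUSP phosphatases remove the activating phosphates from MAP kinases, and Sprouty and SPRED proteins act further up, on the way from receptors to RAF. The RNA of such genes is therefore often read as a sign of ERK output. The cascade is a main driver of growth in pancreatic ductal adenocarcinoma.

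The values were read as FPKM, which counts fragments per kilobase and corrects for library size. From the steps between low values, a level of 1 FPKM corresponded to 42.0 fragments for each kb in the control and to 47.8 in sgTPST2. The intervals below are 95% Poisson intervals of the fragments behind a value, taken for the gene's shortest protein-coding transcript, and they cover counting error only. TPST2 itself stood at 8.46 FPKM in sgGFP (7.82 to 9.15) and at 1.92 in sgTPST2 (1.63 to 2.23). Of the epithelial markers, KRT8 (510 and 41.6 FPKM), KRT18 (583 and 85.3) and KRT19 (189 and 12.8) were present and lower in sgTPST2, KRT7 was below 1 FPKM and EPCAM is listed at 0 in both, while the mesenchymal gene VIM stood at 2661 and 3118. The part of this keratin difference in the results below was not tested. Markers of leukocytes, endothelium, fibroblasts and acinar cells were at or near 0: of 9 genes, 6 are listed at 0 in both libraries, and the 9 summed to 0.323 FPKM in sgGFP and 0.221 in sgTPST2.

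The 10 genes did not move as a group. DUSP6 and ETV4 were lower in sgTPST2, and the 2 Sprouty genes, the 2 SPRED genes, ETV5 and PHLDA1 stayed within 1.5-fold. Of the 10 genes, 9 reached 1 FPKM in at least 1 library, and DUSP4 did not. On the scale log2((sgTPST2 + 1)/(sgGFP + 1)), 2 genes were at least 1.5-fold lower and 0 at least 1.5-fold higher. Both lower genes also passed 2-fold. Over all 13420 genes that reached 1 FPKM, the same limit of 1.5-fold was passed downwards by 6.94% and upwards by 4.41%, and a limit of 2-fold by 2.93% and 1.61%. The median difference was -0.02 over the 10 genes and -0.03 over the 9, beside 0.00 (-0.00019) for all genes that reached 1 FPKM. The middle of the list thus lay near that of all genes. Of the 2 lower genes, DUSP6 passed the limit of 1 FPKM through sgGFP alone. The 10 genes were chosen with earlier results of these data known, so the count of 2 is a description and not a test.

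**Figure D1:**
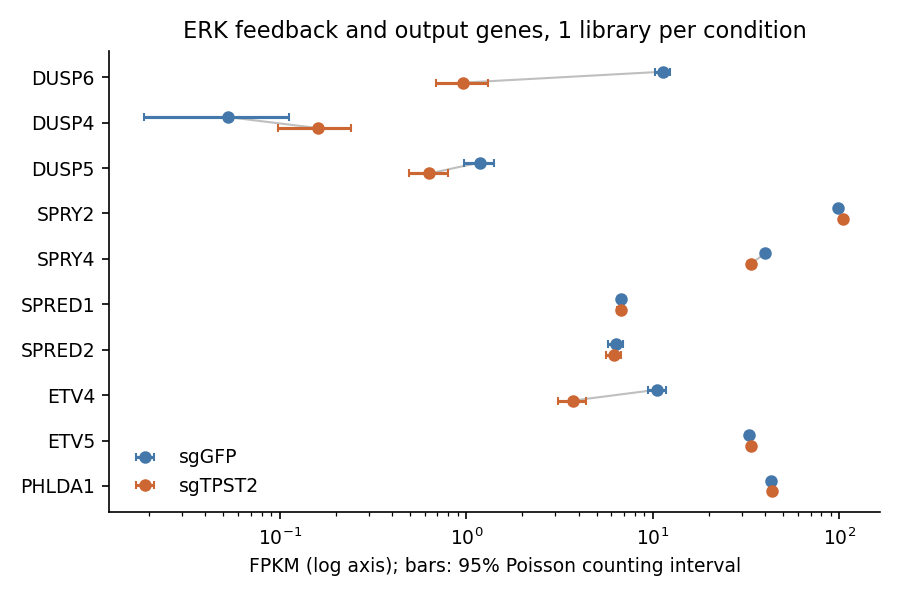
Level of each of the 10 genes in sgGFP (blue) and sgTPST2 (orange), in FPKM on a log axis, with 95% Poisson counting intervals and a line joining the pair. DUSP6 (11.3 and 0.958) and ETV4 (10.6 and 3.71) are the wide pairs among genes above 5 FPKM, while SPRED1, SPRED2, ETV5 and PHLDA1 nearly coincide.

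Short stretches of sequence before a RefSeq start are shown for 3 genes: the CCGGAA matches found, in SPRY2 and PHLDA1, and 1 GGAA match in DUSP6. They are RefSeq sequences of the build GRCh38.p14, from the minus strand of the chromosome, 5′ to 3′ in the direction of the gene, at chr12:89352639-89352668 for DUSP6, chr13:80341251-80341280 for SPRY2 and chr12:76031848-76031877 for PHLDA1. In the GENCODE annotation the DUSP6 and PHLDA1 stretches fall inside a 5′ exon of a longer transcript of the gene. Capitals mark GGAA, the core of sites bound by ETS factors such as ETV4, in DUSP6, where it is the 1 match of 6 that reads along the gene's own strand. In SPRY2 and PHLDA1 they mark the longer ETS match CCGGAA, which in PHLDA1 reads on the other strand.
DUSP6: gcttatccggagcGGAAattcctttccgtt
SPRY2: tccctgcctcctCCGGAAaggcgagggcgc
PHLDA1: gaggagaggagtTTCCGGggctcgggtccg
Promoter windows were found for 6 of the 10 genes, 9 windows in all, and the 250 bases before each start were searched on both strands. No window was found for DUSP4, DUSP5, ETV5 and ETV4, the other lower gene. CCGGAA, which contains GGAA, was found in 2 of the 9 windows, those of SPRY2 and PHLDA1, and in 14.5% of all 35116 windows. GGAA was found in 9 of 9, those of SPRY4, SPRED1 and SPRED2 included, and in 92.7% of all windows. The AP-1 motif TGANTCA (6.57% of all windows) and the cyclic AMP response element TGACGTCA (1.65%) were found in 0 of the 9. These matches describe letters and not binding. The motif marked in DUSP6 differs from that marked in SPRY2 and PHLDA1, so the printed stretches cannot be set against the outcome of the genes.

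DUSP6 encodes the cytoplasmic phosphatase MKP-3, which is specific for ERK and is itself induced by ERK. It stood at 11.3 FPKM in sgGFP (10.2 to 12.4) and at 0.958 FPKM in sgTPST2 (0.688 to 1.30), and the intervals do not overlap. The plain ratio of the values was 11.8-fold lower in sgTPST2 (counting interval 8.54 to 16.6), and the difference on the log2(FPKM + 1) scale was -2.65. Ordered from the lowest difference upwards, DUSP6 was number 69 of the 13420 genes. Its level was near the middle of these genes in sgGFP (percentile 49.5) and near the bottom in sgTPST2 (percentile 4.52). DUSP6 passed the limit of 1 FPKM through sgGFP alone, so only genes that did the same can lie below it in sgTPST2. The low percentile there is thus largely set by the limit. In RNA from a whole culture, fewer cells that express a gene and less RNA per cell cannot be told apart.

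DUSP5 and DUSP4 encode nuclear phosphatases of the same family, and both were little expressed. DUSP5 stood at 1.18 FPKM in sgGFP (0.978 to 1.41) and at 0.632 in sgTPST2 (0.495 to 0.797), about 118 and 72 fragments. The plain ratio was 1.86-fold lower in sgTPST2 (1.38 to 2.54), but at so low a level the log2(FPKM + 1) difference was -0.42, inside the limit of 1.5-fold. DUSP5 and DUSP6 passed the limit of 1 FPKM through their values in sgGFP alone. DUSP4 stood at 0.0531 FPKM in sgGFP (0.0189 to 0.112) and 0.160 in sgTPST2 (0.0978 to 0.241), about 6 and 21 fragments. Its direction was thus opposite to that of DUSP6, at a level of a few fragments where the ratio of 3.02 has a counting interval from 1.20 to 9.31.

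Set beside the other 7 MAP kinase phosphatases, DUSP6 went from the highest value per length to a minor one. In sgGFP its counting interval (10.24 to 12.42) overlapped that of DUSP1 (8.92 to 10.32), so its first place there is not resolved. The 10 genes summed to 39.7 FPKM in sgGFP, of which DUSP6 was 28.5%, and to 22.8 FPKM in sgTPST2, of which it was 4.19%. DUSP7, the close relative of DUSP6 that also acts on ERK in the cytoplasm, stood at 8.32 and 4.24 FPKM, a ratio of 0.509 (0.461 to 0.561). DUSP1 (9.60 and 7.66 FPKM) and DUSP2 (6.50 and 7.50 FPKM), both nuclear phosphatases, stayed within 1.5-fold. In sgTPST2, DUSP1 and DUSP2 together with DUSP7 held the largest shares of the sum, at 33.6%, 32.8% and 18.5%. Of the other 7 phosphatase genes, 4 reached 1 FPKM. Of these 4, 2 were lower by 1.5-fold or more and 0 higher, beside 6.94% and 4.41% over all genes. The 2 were DUSP7 and DUSP16. DUSP16 was at 1.68 and 0.762 FPKM, so it passed the limit of 1 FPKM through sgGFP alone. It lies on the short arm of chromosome 12, which is described below. DUSP8 and DUSP9 were below 1 FPKM in both libraries and DUSP10 is listed at 0.

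The Sprouty proteins SPRY2 and SPRY4 and the SPRED proteins damp the activation of RAS and RAF, the SPRED proteins by bringing the RAS inactivator neurofibromin (NF1) to the membrane. SPRY2 was the most abundant of the 10 genes, at 97.7 FPKM in sgGFP (95.6 to 99.9) and 104.6 in sgTPST2 (102.5 to 106.7), a ratio of 1.07 (1.04 to 1.10). SPRY4 stood at 39.7 FPKM (38.4 to 41.0) and 33.4 FPKM (32.3 to 34.5), 1.19-fold lower in sgTPST2 (1.14 to 1.25). The counting intervals of both pairs were apart, in opposite directions, but the differences on the log2 scale were only 0.10 and -0.24, and how far 2 cultures of 1 condition would differ is not known here. With SPRY1, at 21.6 and 19.3 FPKM, the Sprouty genes summed to 159.0 FPKM in sgGFP and 157.2 in sgTPST2.

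SPRED1 stood at 6.77 FPKM in sgGFP (6.49 to 7.06) and at 6.71 in sgTPST2 (6.45 to 6.98). SPRED2 stood at 6.32 FPKM (5.73 to 6.94) and 6.16 FPKM (5.63 to 6.75). Both pairs overlapped, with ratios of 0.992 (0.935 to 1.05) and 0.974 (0.855 to 1.11). Their partner NF1 was at 7.76 and 7.63 FPKM.

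ETV4 and ETV5, with ETV1, form the PEA3 group of ETS transcription factors, which carry the ERK signal into the expression of growth and invasion genes. ETV4 stood at 10.6 FPKM in sgGFP (9.45 to 11.8) and 3.71 FPKM in sgTPST2 (3.11 to 4.41), 2.84-fold lower (2.31 to 3.51) and -1.29 on the log2(FPKM + 1) scale. It was number 243 of the 13420 genes from the lowest difference upwards. ETV5 stood at 32.9 FPKM (31.7 to 34.2) and 33.6 FPKM (32.5 to 34.8), a ratio of 1.02 (0.970 to 1.07), with overlapping intervals. ETV1 lay at 5.91 and 4.56 FPKM. ETV4 was thus 21.4% of the summed level of the group in sgGFP and 8.87% in sgTPST2, while ETV5 held 66.6% and 80.3%, and the sum was 49.4 and 41.9 FPKM. One annotated ETV4 transcript reaches into DHX8 on the opposite strand, which stood at 26.5 and 24.8 FPKM, and reads of the 2 genes could be mixed if strand was not used in the counting.

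PHLDA1, an early response gene that encodes a pleckstrin homology-like domain protein, stood at 43.02 FPKM in sgGFP (42.2 to 43.9) and 43.3 FPKM in sgTPST2 (42.5 to 44.1). The ratio was 1.01 (0.979 to 1.03), the narrowest interval of the 10 genes. Its relatives PHLDA2 and PHLDA3 were little expressed, at 1.05 and 0.317 FPKM and at 0.521 and 0.204 FPKM.

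**Figure D2:**
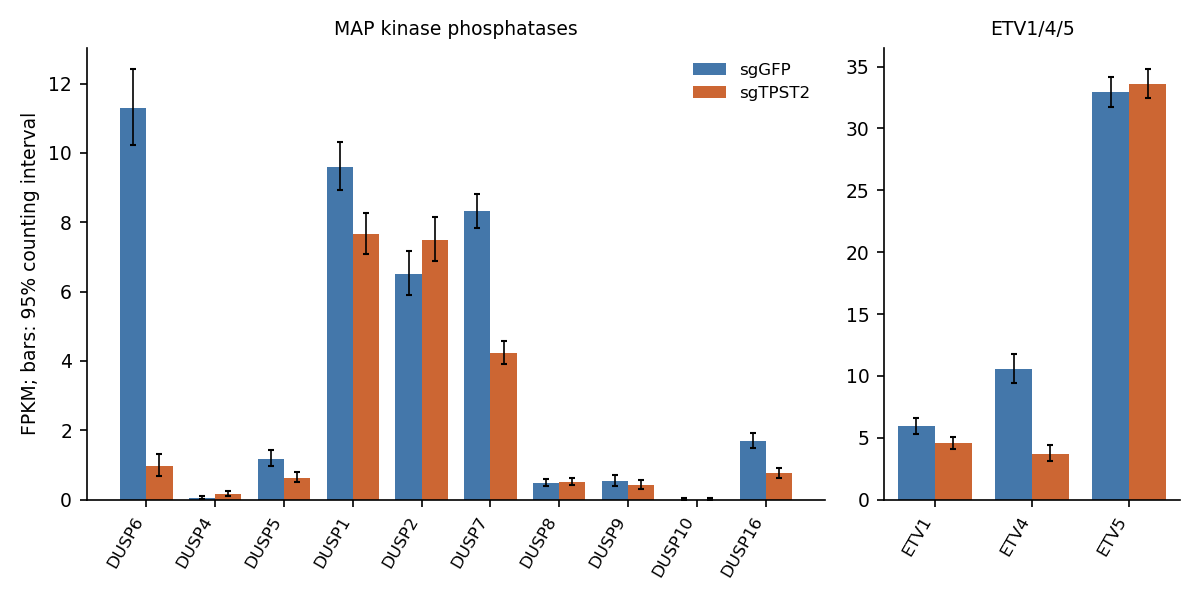
Levels in FPKM of the 10 MAP kinase phosphatase genes, and of ETV1, ETV4 and ETV5, as bars from 0 with 95% Poisson counting intervals, sgGFP in blue and sgTPST2 in orange. In each family 1 gene is far lower in sgTPST2 (DUSP6, ETV4), DUSP7 is about halfway down, and ETV5 differs little.

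By level, the order in sgGFP was SPRY2, PHLDA1, SPRY4, ETV5, DUSP6, ETV4, SPRED1, SPRED2, DUSP5 and DUSP4. Neighbours whose counting intervals overlapped were DUSP6 with ETV4 and SPRED1 with SPRED2. In sgTPST2 the order was SPRY2, PHLDA1, ETV5, SPRY4, SPRED1, SPRED2, ETV4, DUSP6, DUSP5 and DUSP4, and the overlapping neighbours were ETV5 with SPRY4, SPRED1 with SPRED2 and DUSP6 with DUSP5. DUSP6 and ETV4 thus left the middle of the order, and the interval of DUSP6 met that of DUSP5.

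For the cascade above these genes, values of 22 genes are given, from receptor adaptors to kinases that ERK activates, and no statement is made on the cascade beyond them. All 22 reached 1 FPKM, and the median difference was -0.01. On the log2(FPKM + 1) scale 0 were lower and 0 higher by 1.5-fold or more, beside 6.94% and 4.41% over all genes. With a pseudocount of 0.1 each count was 1. The plain ratio of KSR1 (1.86 FPKM in sgGFP, 1.05 in sgTPST2) was 0.565 (0.442 to 0.724). That of GAB1 (1.15 and 2.13 FPKM) was 1.86 (1.47 to 2.34). KSR1 and GAB1 were named after their values were seen. The scaffold gene SHOC2 stood at 15.4 FPKM in sgGFP and 21.1 in sgTPST2, and the phosphatase gene PTPN11 (SHP2) at 56.02 and 43.6 FPKM. The adaptor gene SHC1, whose status in the authors' deposited table is FAIL, stood at 180.3 and 221.8 FPKM. The MEK gene MAP2K1 was at 11.5 and 9.55 FPKM, and MAPK3, which encodes ERK1 and was named after its values were seen, at 35.4 and 38.1 FPKM.

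Several genes of the pathway lie on the short arm of chromosome 12, where nearly all genes were lower in sgTPST2. The arm holds 102 protein-coding genes whose mean reached 5 FPKM, and 100 of them were lower, with a median difference of -0.88, or 1.84-fold. The part of the arm in the differences of DUSP16, ETV6 and EMP1, which lie on it, was not tested. None of the 10 feedback and output genes lies there.

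DUSP6 (ENSG00000139318.7, 89347232 to 89353271) and PHLDA1 are on the long arm of the same chromosome, where no close neighbour was lower by 1.5-fold. The 8 genes whose midpoints lie within 5 Mb of the midpoint of DUSP6, among protein-coding genes with a mean of 5 FPKM or more, had a median of -0.08 and ran from -0.34 to 0.06, so none was near the -2.65 of DUSP6. Of the 334 genes on the rest of chromosome 12, with a median of -0.01, 3 were at or below the value of DUSP6, itself included, the others being KRT8 and KRT18. ETV4 (ENSG00000175832.12, chromosome 17, 43527844 to 43579620) had 108 such neighbours, with a median of -0.01, of which 3 were at or below its own value.

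**Figure D3:**
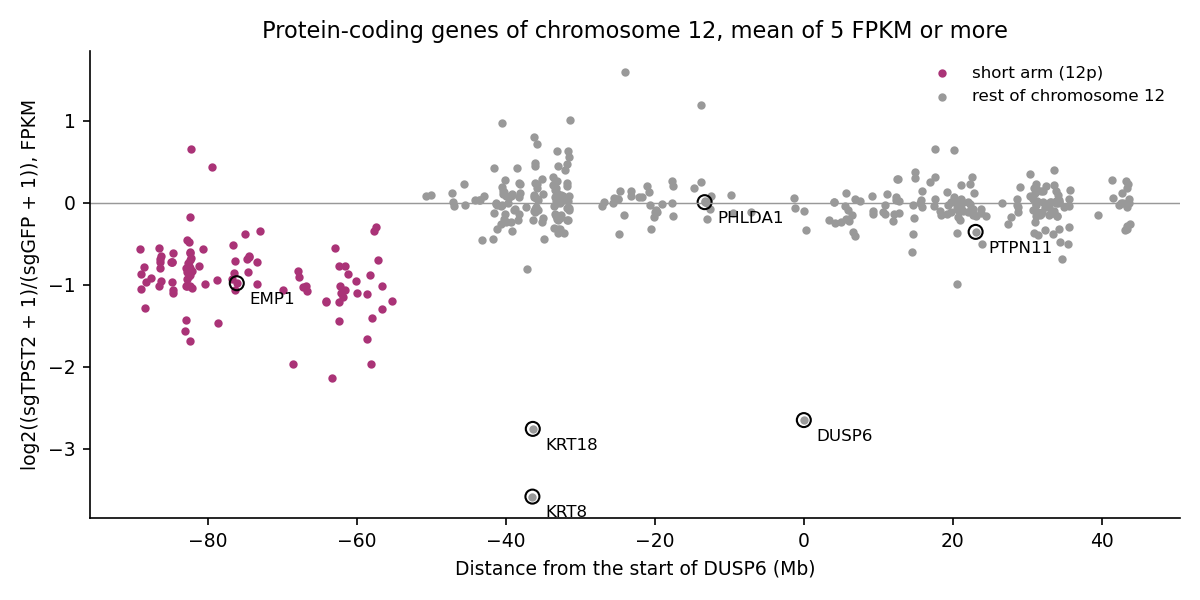
Difference of each protein-coding gene of chromosome 12 with a mean of at least 5 FPKM, on the log2(FPKM + 1) scale, against its distance from the start of DUSP6 in Mb. Genes of the short arm (purple) lie around -0.88, with EMP1 among them, the rest of the chromosome (grey) lies around -0.01, and DUSP6 at -2.65 stands alone among its neighbours, with KRT8 and KRT18 the 2 lower points.

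Other genes that are read as ERK output, listed together with the PHLDA1 relatives PHLDA2 and PHLDA3, were mixed, with several lower and others level. Of the 16 genes of this list 14 reached 1 FPKM. Of these, 5 were lower by 1.5-fold or more and 0 higher, beside 6.94% and 4.41% over all genes. Of the 5, FOS and PHLDA2 passed the limit of 1 FPKM through sgGFP alone, and 3 reached 5 FPKM in a library. FOS rested on about 46 and 20 fragments in sgGFP and sgTPST2, and PHLDA2 on about 26 and 9. The median was -0.32 over the 16 and -0.24 over the 14. Of the 14, 11 had a difference below 0 and 3 above 0. UPP1, a uridine phosphorylase induced by the pathway in pancreatic cancer, stood at 31.4 FPKM in sgGFP and 10.96 in sgTPST2, a ratio of 0.349 (0.318 to 0.383). The receptor gene EPHA4 was at 89.8 and 55.8 FPKM, EMP1, another gene of the short arm of chromosome 12, at 87.7 and 43.9, the immediate early factor FOS at 2.42 and 0.918, and PHLDA2 as given above. FOSL1 stood at 4.76 FPKM in sgGFP and 2.86 in sgTPST2, a log2(FPKM + 1) difference of -0.579, inside the limit of 1.5-fold. The counting interval of its plain ratio ran from 0.477 to 0.755. EGR1, below 1 FPKM in both libraries, was at 0.954 and 0.501, with a ratio interval from 0.385 to 0.709. IER3 went the other way, at 1.28 and 1.47 FPKM, with a ratio interval from 0.808 to 1.66. CCND1, the cyclin D1 gene and a classical output of ERK, was at 52.7 FPKM in sgGFP and 53.0 in sgTPST2. The EGFR ligand gene AREG stood at 123.9 and 156.1 FPKM and EREG at 144.9 and 139.1 FPKM. FOS, PHLDA2, FOSL1, EGR1, IER3, CCND1 and EREG were named after their values were seen.

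In a list of 10 genes, other ETS factors and the repressor CIC, all 10 reached 1 FPKM, with a median of -0.04. Of these, 2 were lower by 1.5-fold or more and 0 higher, beside 6.94% and 4.41% over all genes. Of the 2, ETV6 passed the limit of 1 FPKM through sgGFP alone. ETS2, a factor that ERK phosphorylates, stood at 8.69 FPKM in sgGFP and 2.36 in sgTPST2, a ratio of 0.271 (0.242 to 0.304), a larger difference than that of ETV4. ETV6, also of that short arm and named after its values were seen, was at 3.04 and 0.941 FPKM. ELK3, a cofactor of serum response factor, was at 6.07 and 4.32 FPKM. CIC, which represses ETV4 and ETV5 until ERK relieves it, stood at 5.95 and 7.89 FPKM, and ERF, a repressor that ERK sends out of the nucleus, at 30.8 and 39.1 FPKM.

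Among 5 other feedback inhibitors, 3 reached 1 FPKM and 0 were 1.5-fold apart in either direction, with a median of -0.05 over the 5 and -0.15 over the 3. ERRFI1, which inhibits EGFR directly, stood at 260 and 251 FPKM. Of 9 receptor tyrosine kinase genes, 8 reached 1 FPKM, with 1 lower by 1.5-fold or more, 0 higher and a median of 0.09 over the 9, 0.14 over the 8 and -0.02 over those at 5 FPKM or more. EGFR stood at 7.92 and 4.56 FPKM, MET at 10.4 and 8.43, IGF1R at 7.10 and 10.6, and FGFR3 at 6.26 and 9.22. Over these 6 lists 61 of 69 genes reached 1 FPKM, and 10 of the 61 were lower by 1.5-fold or more and 0 higher, beside 6.94% and 4.41% over all genes. Of the 10, 3 lie on the short arm of chromosome 12, and 4 (DUSP16, ETV6, FOS and PHLDA2) passed the limit of 1 FPKM through sgGFP alone.

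**Figure D4:**
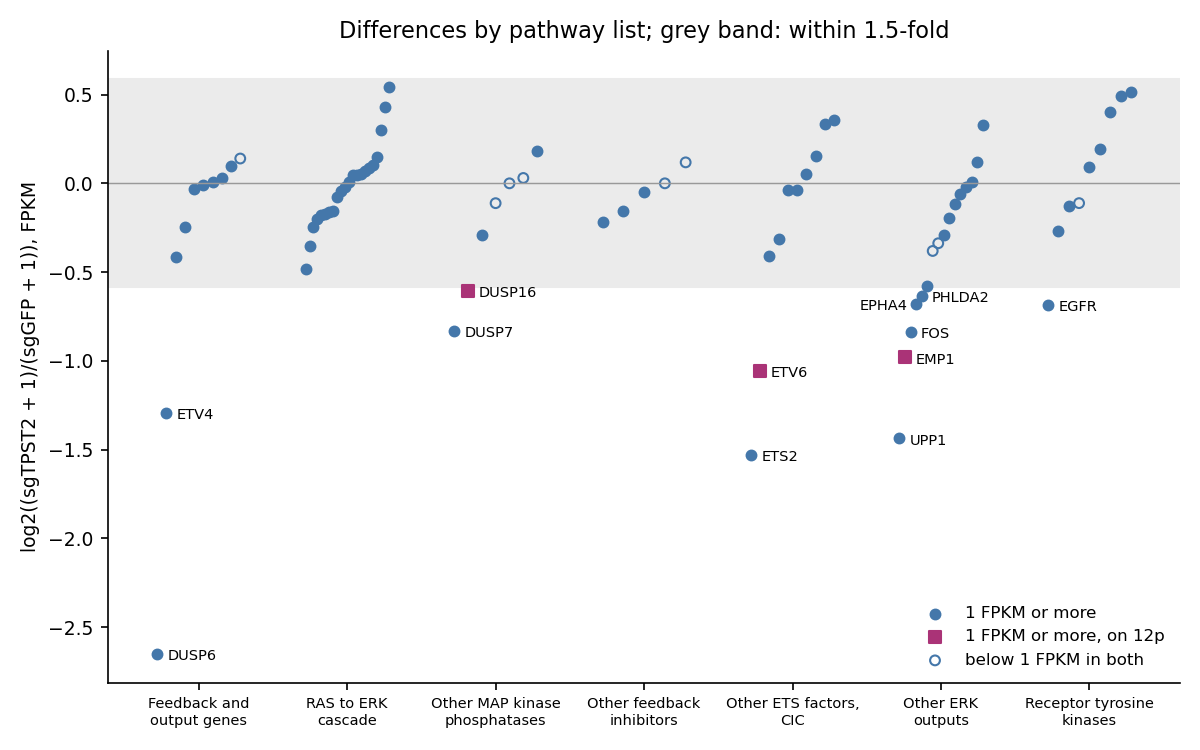
Difference of each gene on the log2(FPKM + 1) scale for the 10 feedback and output genes and the 6 other pathway lists, sorted within each list, with the band of 1.5-fold in grey, genes on the short arm of chromosome 12 as purple squares and genes below 1 FPKM in both libraries as open circles. DUSP6 at -2.65 is the lowest point of all lists, and no gene lies above the band.

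The authors' deposited table gives a test for 9 of the 10 genes and none for DUSP4. Of the 9, 0 pass q = 0.05 in the authors' deposited table, while 96 of all 18574 tested genes (0.517%) do. DUSP6 comes nearest, with p = 0.0006 and q = 0.103 in the authors' deposited table. The authors' deposited table gives q = 0.99965 for ETV4 and q = 0.369 for UPP1. Of the 69 genes of the other lists 0 pass q = 0.05 in the authors' deposited table, but not all were tested. DUSP10 and SPRY3 have no test there, and the status of SHC1 is FAIL. TPST2 itself does not pass either, with q = 0.245 in the authors' deposited table.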

How the data were processed

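Total RNA libraries were made with a stranded kit, per the labels' protocols. Per the submitters' processing notes, the tools were STAR and Cuffdiff and the build hg38; their versions, the annotation and the strand setting are not stated there. The deposited table gives 1 value per gene and library, read as FPKM, the unit Cuffdiff reports, since the header names none. It also holds the authors' test statistic, a score not used here, the authors' p-value and q-value, and the authors' log2 fold change, which equals log2((sgTPST2 + 1)/(sgGFP + 1)). All 58698 genes matched GENCODE release 29 (GRCh38), used for coordinates and transcript lengths.

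The scaling by the authors was kept. Genes count as measured where either library reached 1 FPKM. Fragments per FPKM were fitted on low values of genes with 1 transcript longer than 1500 bp: 92.7% of 735 values in sgGFP and 93.1% of 725 in sgTPST2 came within 0.1 of whole numbers. Step and offset (180 bp) were fitted on those same values. Ratio intervals are exact binomial ones. Both procedures were also run on data simulated under the Poisson model that they assume. That run checks the code, and not the model or the choice of the shortest transcript. From each other list, the up to 4 largest differences at 5 FPKM or more are named, and TPST2. Some genes of these lists are not reported here, and the list counts leave them out. Members and lists were chosen with earlier results of these data known. Python 3.11.15, numpy 2.4.6 and scipy 1.17.1 were used.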

Additional observations from a re-analysis of the deposited data

How the results depend on the processing

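No paired analysis was possible because there is 1 library per condition, which also leaves nothing to drop. Scaling by the upper quartile, the column sum or the median gene changed no count and moved the median difference of all genes to at most 0.0115. The count of 2 lower members held under these, under both other filters and at 2-fold; with a pseudocount of 0.1 it was 3, DUSP5 being added. With that pseudocount the differences were -3.43 for DUSP6, -0.80 for DUSP5 and 0.77 for DUSP4. The 10 lower genes of the other lists became 12 with that pseudocount, 6 at 5 FPKM or more, 3 at 2-fold and 7 without the short arm of chromosome 12, the last 3 by construction fewer genes or a stricter limit, and the 0 higher became 1 with a pseudocount of 0.1. Among the 10 genes depth is least for DUSP4, at about 6 and 21 fragments; DUSP6 in sgTPST2 rests on about 41.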

Other observations

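SPRY4 shares its locus with genes on the opposite strand that were not among the lists. SPRY4-AS1, an antisense RNA, stood at 6.08 FPKM in sgGFP and 2.80 FPKM in sgTPST2. Inside the span of SPRY4, RF02039, annotated as miscellaneous RNA, is at 30.3 FPKM in sgGFP and listed at 0 in sgTPST2. RF02038, of the same annotation, is listed at 0 in sgGFP and at 478.8 FPKM in sgTPST2. No fragment counts or counting intervals were derived for them, so whether these values differ beyond counting error was not tested. Whether reads of these RNAs enter the SPRY4 value, or the reverse, was not tested. The antisense RNA that overlaps DUSP6 was at 0.0942 and 0.0779 FPKM, far below DUSP6 in both libraries.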
